A study of Mus musculus with 2 samples.

Results

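Bone morphogenetic proteins (BMPs) and the wider TGF-beta family were followed in the neonatal mouse cochlea through 8 genes: the ligand genes Bmp2, Bmp4 and Gdf6, the secreted inhibitor gene Fst, the receptor gene Bmpr2, the receptor-associated gene Strap, the signal transducer gene Smad3 and the target gene Id4. They were taken from the deposited gene list by symbol, and all 8 were found among its 33696 features. Each was counted as unique molecular identifiers (UMIs) per nucleus in 2 single-nucleus RNA libraries and summed over groups of nuclei gated by marker genes. The Serpine2 cOE library (conditional overexpression, as the series names it) came from 20 pooled cochleae of Lgr5EGFP-CreER/+ Serpine2loxp/loxp mice. The control library came from 19 pooled cochleae of Serpine2loxp/loxp mice, which lack the driver. All mice received tamoxifen at postnatal day 1 and were taken at day 7. The labels give the tissue as basement membranes of the cochlea and the cells as hair cells and supporting cells, although most gated nuclei carried mesenchymal markers. Lgr5-CreER acts in Lgr5-expressing supporting cells of the organ of Corti. Effects of the driver and of recombined Serpine2 cannot be told apart here, and the labels do not describe what recombination does to the gene. Levels are given as CPM, UMIs of the gene per 1000000 UMIs of the same nuclei. Serpine2 stood at 226.8 CPM in cOE and 249.9 CPM in control nuclei of the pillar and Deiters gate (log2 ratio -0.14, 95% interval -0.73 to 0.47). Each group was 1 library, so no difference below has a replicate check, no test was possible, and every interval covers counting error only.

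BMP ligands are secreted dimers that bind paired type I and type II receptors such as BMPR2, after which receptor-regulated Smads enter the nucleus and switch on targets that include the Id genes. TGF-beta and activin ligands use their own receptors and Smad2 or Smad3, and follistatin, the product of Fst, binds activins and some BMPs outside the cell. In the developing cochlea Bmp4 is known from the lateral (abneural) side of the sensory epithelium, where it takes part in radial patterning of the duct.

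After filtering, 9777 cOE and 8250 control nuclei remained, with medians of 2401 and 2247 UMIs. The 2 libraries shared 15 barcodes among these nuclei. A nucleus entered a gate when it carried at least 2 distinct markers of its list, at least 3 UMIs of the list and at least 2 more markers of it than of any other list. The medial epithelium gate (Kölliker organ and interdental markers) held 901 cOE and 408 control nuclei. The mesenchyme gate held 3792 and 3758, and the pillar and Deiters gate 64 and 34. The lateral epithelium gate found only 1 cOE and 3 control nuclei. In its place nuclei with at least 2 UMIs of the lateral marker Hmga2 and in no other gate were used, 113 in cOE and 79 in control, and this Hmga2 gate was chosen after the data had been seen. Its other lateral markers were uneven. Gata2 stood at 267 CPM in cOE nuclei and 246 CPM in control nuclei, close to its 222.5 and 187 CPM in the medial gate, and Otx1 had 3 and 2 UMIs. Slc26a4 was above its medial level in both libraries (41.6 and 33.8 CPM against 15.7 and 10.3 CPM). Kcnj16 was above it in cOE only (31.5 against 16.8 CPM), and Aqp4 and Anxa1 were close to their medial levels. The nuclei are therefore called by their gate and not as a cell type. Nuclei just under the Hmga2 threshold, with 1 UMI, numbered 94 and 69, and nuclei just inside it numbered 53 and 32. Both libraries were also clustered together into 26 clusters, with the 8 genes left out of the clustering, and 25 clusters with at least 20 nuclei in each library were used. Cluster 8 (led by Actb and Kdelr2, median 866 UMIs) stood apart, with 63 cOE and 751 control nuclei. It held 3 and 6 nuclei of the medial gate and 14 and 121 of the mesenchyme gate.

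Bmp4 (ENSMUSG00000021835, chromosome 14, 46620250 to 46636745, minus strand in GRCm39) was concentrated in a small population in both libraries. Its upstream sequence is shown because the gene's level separated this population from all others. The 250 bases before the annotated start (RefSeq, GRCm38.p6, chr14:46390670-46390919, minus strand, 5' to 3') held no GGCGCC, the core of a GC-rich element through which BMP-regulated Smads act on Id1, on either strand. GGCGCC occurs in 9.586% of 32851 such RefSeq windows.

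Bmp4 upstream: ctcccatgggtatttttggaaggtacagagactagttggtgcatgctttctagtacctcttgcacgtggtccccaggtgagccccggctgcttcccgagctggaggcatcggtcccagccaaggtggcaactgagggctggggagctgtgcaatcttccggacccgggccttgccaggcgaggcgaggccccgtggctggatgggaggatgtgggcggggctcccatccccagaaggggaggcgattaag

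In cluster 13, led by Ndst3, Rasgef1b and Ankrd6 and with Hmga2 among its 10 leading genes, Bmp4 stood at 1146 CPM in cOE nuclei and 1105 CPM in control nuclei. The log2 ratio was 0.05 (-0.07 to 0.18), from 1333 and 833 UMIs. This cluster held 2.74% of cOE and 2.09% of control nuclei but 53.2% and 42.5% of all Bmp4 UMIs. The cluster next in level stood at 68.0 CPM in cOE (cluster 2, led by Opcml) and at 115 CPM in control (cluster 25, led by A330049N07Rik and Cep41, pillar-Deiters-like by its markers). In control, 20 of the 22 Bmp4 UMIs of cluster 25 lay in 1 nucleus of 13918 UMIs, so that rank rested on 1 nucleus. The larger roof-like cluster, 7, was among the lowest, at 6.12 CPM in cOE nuclei and 10.2 CPM in control nuclei. The median over 25 clusters was 34.3 and 39.2 CPM.

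By gate the order was the same in both libraries. Bmp4 stood at 535 CPM in cOE nuclei and 667 CPM in control nuclei in the Hmga2 gate, at 151 and 207 CPM in the pillar and Deiters gate, at 79.3 and 119 CPM in the medial gate, at 51.1 and 55.5 CPM in the mesenchyme gate and at 38.1 and 29.4 CPM in the hair cell gate. The roof gate was lowest of these, at 17.5 CPM in cOE from 29 UMIs, and with 13 UMIs in control. The Hmga2 gate exceeded the medial gate by 2.75 (2.54 to 2.97) in cOE and by 2.49 (2.24 to 2.74) in control on the log2 scale. Of the Hmga2 gate nuclei, 69.0% in cOE and 77.2% in control lay in cluster 13.

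After thinning each nucleus to 1000 UMIs, 48.7% of cOE and 50.6% of control nuclei of the Hmga2 gate had a Bmp4 UMI, and 77.0% and 79.8% did unthinned. In the mesenchyme gate the thinned shares were 5.15% and 5.29%. Macrophages, which should lack the gene, gave 0 of 87 cOE nuclei, which allows up to 3.45%, and 1 of 106 control nuclei, with median depths of 1677 and 1582 UMIs before thinning. The roof gate, with more depth (3507 and 3540 UMIs), gave 0.696% and 1.75%. The mesenchymal share lay above that of the roof nuclei in both libraries (intervals 4.46% to 5.92% and 4.58% to 6.07% in mesenchyme, 0.144% to 2.02% and 0.480% to 4.43% in the roof gate). The macrophage interval reached 4.15% in cOE and 5.14% in control, so in control it overlapped that of mesenchyme.

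Most Bmp4 in the medial gate came from nuclei of cluster 13 that also passed the medial markers. Of 288 cOE and 218 control UMIs in that gate, 221 and 194 were in cluster 13 nuclei, which made up 43 of 901 and 30 of 408 medial nuclei. Outside cluster 13 the medial level was 19.5 CPM in cOE nuclei and 14.4 CPM in control nuclei (log2 ratio 0.44, -0.26 to 1.17). That did not exceed the macrophage gate, at 21.3 and 17.9 CPM from 4 UMIs in each library. In the pillar and Deiters gate 30 of 42 cOE and 31 of 34 control UMIs lay in cluster 13 as well. Most Bmp4 UMIs of both gates were thus in nuclei of cluster 13.

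**Figure D1:**
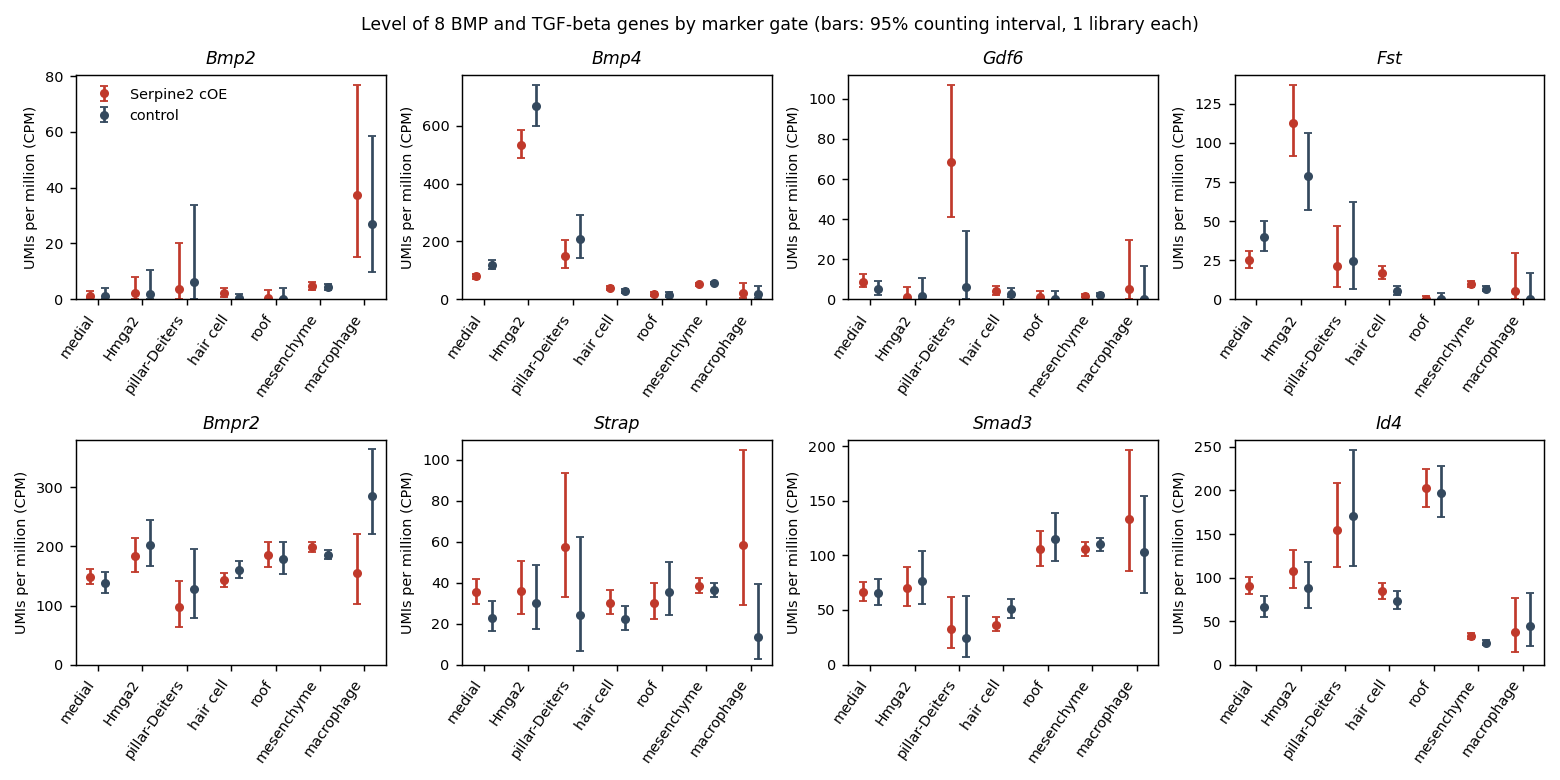
Level of each gene (CPM, vertical axis) in 7 marker gates (horizontal axis), with Serpine2 cOE in red left of control in dark blue; each point is 1 library and bars are 95% counting intervals. Bmp4 and Fst are highest in the Hmga2 gate, Gdf6 in the cOE pillar-Deiters gate, Bmp2 in macrophages and Id4 in the roof gate.

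Fst (ENSMUSG00000021765, chromosome 13, 114588731 to 114595521, minus strand) encodes follistatin and peaked in the same cluster as Bmp4. It stood there at 183 CPM in cOE nuclei and 224 CPM in control nuclei (213 and 169 UMIs, log2 ratio -0.29, -0.59 to 0.01), which was 38.5% and 48.6% of all Fst UMIs. Over the 25 clusters the levels of Bmp4 and Fst had a Pearson r of 0.61 in cOE and 0.57 in control on the log2(CPM + 10) scale, a description of clusters that share their libraries. Before thinning, the nucleus of cluster 13 richest in Bmp4 matched in depth that richest in Fst, 12727 UMIs in cOE and 51329 in control. The top counts there were 20 and 57 UMIs for Bmp4 and 19 and 34 for Fst. After thinning, the genes were not found more often in the same nuclei of that cluster. A Fst UMI was present in 13.9% of cOE nuclei with Bmp4 and 15.9% of those without, and in control in 13.7% and 20.3%. In the Hmga2 gate the shares were 16.4% with Bmp4 and 8.62% without in cOE (9 of 55 nuclei with Bmp4), and 7.50% and 10.3% in control (3 of 40). In the roof gate Fst had 0 UMIs in both libraries, which allows up to 1.81 CPM in cOE nuclei and 3.23 CPM in control nuclei.

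In cluster 8, which stood apart by library, Fst was at 82.0 CPM in cOE nuclei from 6 UMIs and 10.7 CPM in control nuclei from 9 UMIs. Of the 6 cOE UMIs, 5 lay in 1 nucleus of 969 UMIs. Cluster 18 (led by Syt6 and Car10) held Fst at 35.7 CPM in cOE nuclei and 44.9 CPM in control nuclei. Cluster 15 (led by Rspo2, Trdn and Otoa, medial-like) differed between the libraries, at 62.6 CPM from 48 UMIs in cOE and 4.35 CPM from 1 UMI in control. Without the nucleus with most Fst UMIs in each library, 34 and 0 UMIs were left there, so the cOE value did not rest on 1 nucleus. Cluster 15 held 292 cOE and 78 control nuclei.

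Gdf6 (ENSMUSG00000051279, chromosome 4, 9844350 to 9862354, plus strand) encodes a BMP-class ligand known for joint and skull patterning, and had its highest level in a different small population. In cluster 23, led by 6330411D24Rik, Mansc4 and Crhr1 and pillar-Deiters-like by its markers, it stood at 260 CPM in cOE nuclei and 102 CPM in control nuclei. The counts were 60 and 15 UMIs and the log2 ratio 1.35 (0.52 to 2.28), from 51 and 34 nuclei. With the richest nucleus left out of each library it was 1.37 (0.47 to 2.37). After thinning, 27.5% of cOE nuclei (15.9% to 41.7%) and 8.82% of control nuclei (1.86% to 23.7%) of this cluster had a Gdf6 UMI, intervals that overlap. In the hair cell gate the shares were 0.494% and 0 of 303, which allows up to 0.990%. Cluster 23 was 0.522% of cOE and 0.412% of control nuclei and held 30.6% and 15.6% of all Gdf6 UMIs.

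Cluster 14 (led by Kcnq5 and, among medial markers, Epyc) stood at 31.2 CPM in cOE nuclei and 34.3 CPM in control nuclei (26 and 14 UMIs), next after cluster 23 in control. Cluster 21 (led by Prox1 and Cep41) stood at 34.7 and 4.49 CPM (13 and 1 UMIs), next after cluster 23 in cOE. In control cluster 21 lay below cluster 19, at 15.6 CPM from 2 UMIs, and cluster 5, at 10.6 CPM from 8 UMIs. Cluster 13, which held most Bmp4, had 2 and 0 Gdf6 UMIs. Bmp4 and Gdf6 peaked in separate clusters in both libraries, with Bmp4 at 34.7 CPM in cOE nuclei and 74.7 CPM in control nuclei in cluster 23. Those Bmp4 levels came from 8 and 11 UMIs, of which 5 and 10 lay in 1 nucleus of each library. Over all kept nuclei Gdf6 stood at 5.98 CPM in cOE nuclei and 3.55 CPM in control nuclei (196 and 96 UMIs, 0.75, 0.39 to 1.12).

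Bmp2 (ENSMUSG00000027358, chromosome 2, 133394079 to 133404816, plus strand), a ligand close to BMP4 and best known from bone formation, was sparse, with 101 UMIs in cOE and 79 in control. The macrophage-like cluster 17 was highest, at 36.5 CPM in cOE nuclei and 28.1 CPM in control nuclei (8 and 7 UMIs), and cluster 9, led by Runx2 and the bone matrix gene Ibsp, stood at 13.2 and 9.19 CPM. In the mesenchyme gate Bmp2 stood at 4.67 and 4.27 CPM (50 and 49 UMIs, 0.13, -0.47 to 0.73). In the medial gate it was at 1.10 and 1.09 CPM from 4 and 2 UMIs. In cluster 13, where Bmp4 peaked, Bmp2 had 0 UMIs in cOE and 1 in control.

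**Figure D2:**
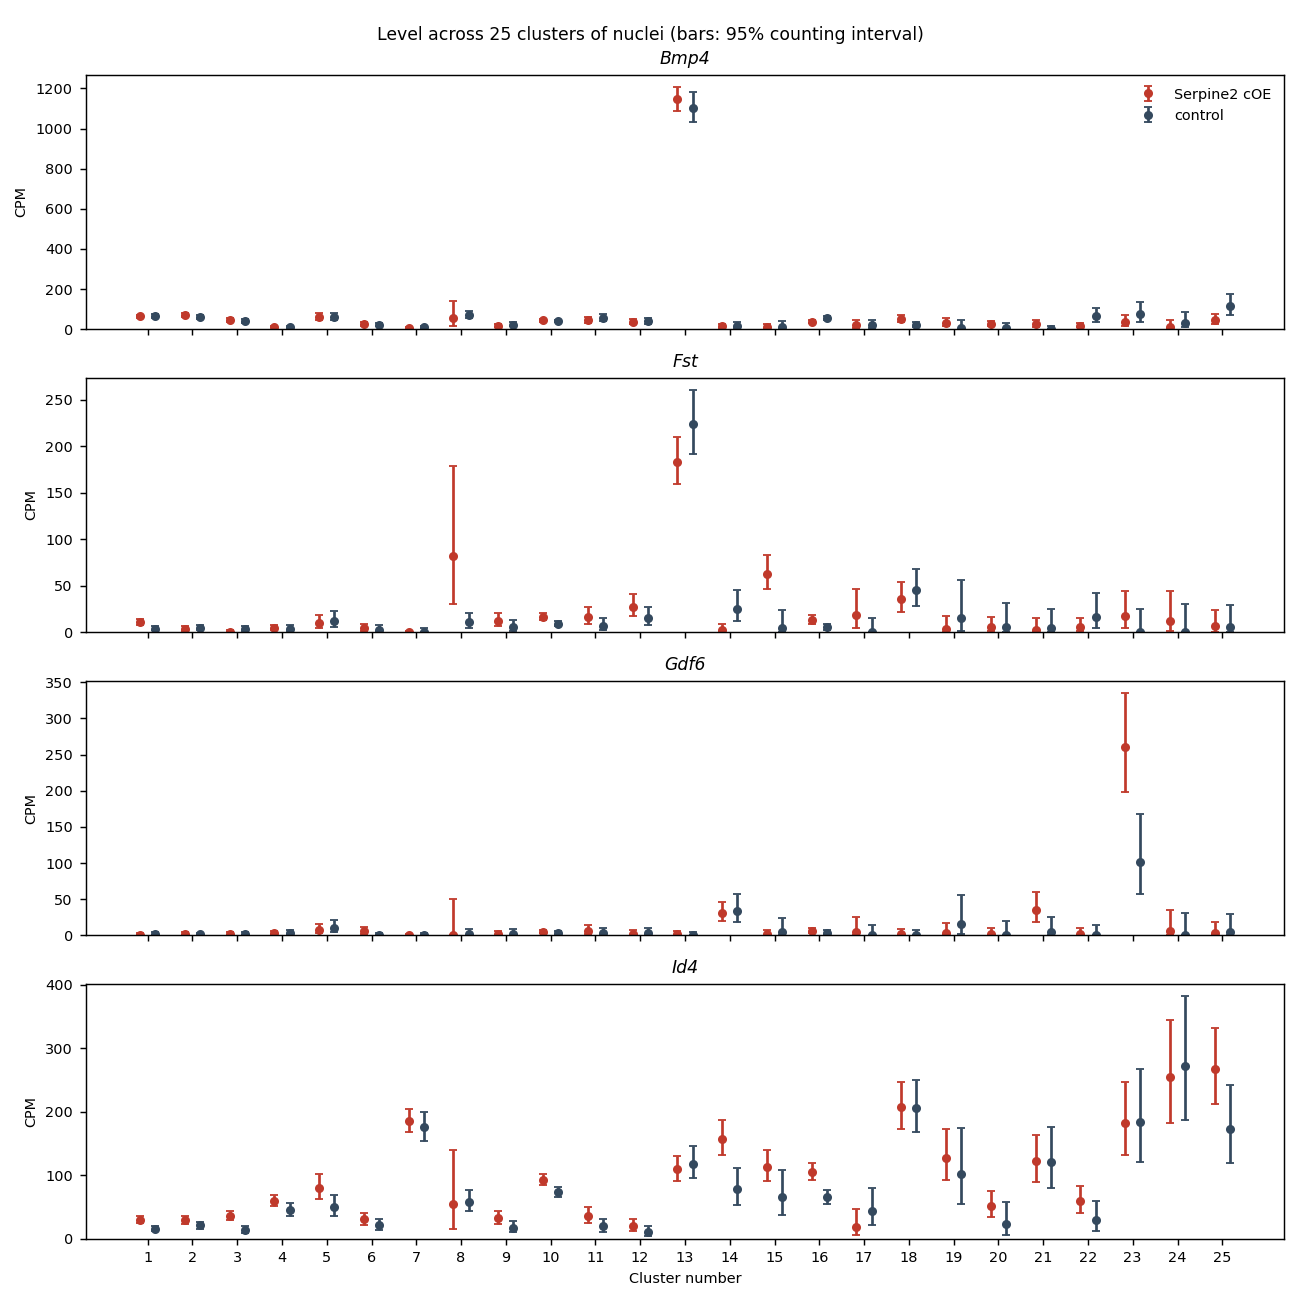
Levels of Bmp4, Fst, Gdf6 and Id4 (CPM, vertical axis, 1 panel a gene) in 25 clusters (horizontal axis, cluster number), Serpine2 cOE in red left of control in dark blue with 95% counting intervals. Bmp4 reaches 1146 CPM in cOE nuclei and 1105 CPM in control nuclei in cluster 13 and stays under 120 CPM in all other clusters shown, and Gdf6 peaks in cluster 23.

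The receptor, the transducer and the associated protein were spread over all cell types. Bmpr2 (ENSMUSG00000067336, chromosome 1, 59802544 to 59918173, plus strand), the BMP type II receptor, stood at 181 CPM in both libraries over all kept nuclei (5936 and 4885 UMIs, log2 ratio 0.00, -0.05 to 0.06). The mesenchyme gate was at 200 CPM in cOE nuclei and 186 CPM in control nuclei, and the medial gate at 149 and 138 CPM. Medial over mesenchyme came to -0.42 (-0.56 to -0.29) in the cOE library and -0.43 (-0.62 to -0.24) in the control library. The smallest cluster, 26, with 13 cOE and 15 control nuclei and led by Itga1 and Sgcz, stood at 1481 and 1542 CPM from 43 and 57 UMIs. In the macrophage-like cluster Bmpr2 was lower in cOE, at 141 CPM against 237 CPM in control (31 and 59 UMIs, -0.74, -1.42 to -0.09).

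Smad3 (ENSMUSG00000032402, chromosome 9, 63554049 to 63665476, minus strand), which carries TGF-beta and activin signals, was higher in the mesenchyme gate than in the medial gate. It stood at 106 CPM in cOE nuclei and 110 CPM in control nuclei in mesenchyme and at 66.4 and 65.3 CPM in medial nuclei, a log2 ratio of medial over mesenchyme of -0.67 (-0.88 to -0.47) and -0.75 (-1.03 to -0.48). The roof gate was close to the mesenchyme, at 106 and 115 CPM. The pillar and Deiters gate was low, at 32.4 and 24.4 CPM from 9 and 4 UMIs. Cluster 9, led by Runx2, was highest at 194 and 208 CPM. In hair cells Smad3 stood at 36.5 CPM in cOE nuclei and 50.9 CPM in control nuclei (137 and 144 UMIs, -0.48, -0.83 to -0.13).

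Strap (ENSMUSG00000030224, chromosome 6, 137712032 to 137731064, plus strand) encodes a WD-repeat protein that binds TGF-beta receptors and is also part of a complex that assembles spliceosomal particles. Over all kept nuclei it stood at 36.9 CPM in cOE nuclei and 32.9 CPM in control nuclei. It was highest in cluster 5 (led by Mdk and Igfbp2, median 1090 UMIs per nucleus), at 73.0 and 77.8 CPM.

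Id4 (ENSMUSG00000021379, chromosome 13, 48414558 to 48419502, plus strand) encodes an inhibitor of basic helix-loop-helix factors and belongs to the Id family of BMP targets. It was higher in the epithelial gates than in the mesenchyme gate. The roof gate stood at 202 CPM in cOE nuclei and 197 CPM in control nuclei, the pillar and Deiters gate at 155 and 171 CPM, the Hmga2 gate at 108 and 88.3 CPM, the medial gate at 90.0 and 65.8 CPM, and the mesenchyme gate at 33.1 and 25.1 CPM. Medial over mesenchyme came to 1.45 (1.22 to 1.67) in the cOE library and 1.39 (1.07 to 1.70) in the control library. Cluster 13, with the most Bmp4, was not the highest for Id4, at 109 and 118 CPM, and clusters 24 (roof-like, led by Il1rapl2) and 18 stood above it, at 254 and 272 CPM and at 207 and 206 CPM. The windows before Id4 (chr13:48260866-48261115, plus strand) and Bmpr2 (chr1:59764029-59764278, plus strand) in GRCm38.p6 each held 1 GGCGCC, in capitals below. They are shown beside that of Bmp4 to set a target and a receptor against the ligand.

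Id4 upstream: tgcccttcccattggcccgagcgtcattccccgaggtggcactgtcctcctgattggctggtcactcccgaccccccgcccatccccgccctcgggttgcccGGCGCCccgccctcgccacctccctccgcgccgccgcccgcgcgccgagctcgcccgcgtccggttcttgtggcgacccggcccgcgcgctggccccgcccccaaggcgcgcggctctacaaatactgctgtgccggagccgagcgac

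Bmpr2 upstream: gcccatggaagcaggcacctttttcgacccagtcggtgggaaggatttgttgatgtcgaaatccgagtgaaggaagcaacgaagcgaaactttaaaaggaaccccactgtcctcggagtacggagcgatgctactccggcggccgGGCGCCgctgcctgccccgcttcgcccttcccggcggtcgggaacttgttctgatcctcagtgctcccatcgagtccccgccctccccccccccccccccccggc

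The windows of Id4 and Bmpr2 hold 75.6% and 64.0% G and C, against 63.2% for Bmp4 and a median of 52.4% over all windows, and a match in GC-rich sequence is a description only. The windows of Strap and Smad3, the other 2 found, held none. GTCTAGAC, the palindromic Smad element, was in none of the 5 windows and is in 0.167% of all windows, and the E-box CAGCTG was in none and is in 13.001% of all.

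Between the libraries the medial gate was compared first. Of 7 genes with at least 20 UMIs there, 2 were past 1.5-fold higher in cOE (Gdf6 and Strap) and 1 past 1.5-fold lower (Fst), where 14.8% of all 13691 genes so measured were past 1.5-fold in either direction (8.22% higher and 6.62% lower). Gdf6 stood at 8.81 CPM in cOE nuclei and 4.90 CPM in control nuclei from 32 and 9 UMIs (0.85, -0.25 to 2.10). Its direction did not hold with medial-like clusters in place of the gate (-0.27, -1.06 to 0.56, 39 and 22 UMIs), and in cluster 14 it was at -0.13. Strap stood at 35.2 and 22.9 CPM from 128 and 42 UMIs (0.63, 0.11 to 1.16). Bmp4 was just inside the 1.5-fold line, at -0.58 (-0.84 to -0.32), and at -0.28 (-0.57 to 0.01) with the nucleus richest in Bmp4 left out of each library. Id4 was at 0.45 (0.15 to 0.77), with Bmpr2 at 0.11 and Smad3 at 0.02. The median over the 7 genes was 0.11 and that over all genes 0.02. In the same nuclei the 10 pillar and Deiters markers summed to 331 CPM in cOE nuclei and 236 CPM in control nuclei and the 6 roof markers to 367 and 232 CPM, all of them detected. The 9 osteoblast and chondrocyte markers, 9 and 7 of them detected, stood further apart, at 70.2 and 30.5 CPM (1.21, 0.78 to 1.65). The part of these lists in the differences was not tested.

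Fst, the gene past 1.5-fold lower, changed direction with the nuclei counted. It stood at 25.1 CPM in cOE nuclei and 39.7 CPM in control nuclei (91 and 73 UMIs, -0.66, -1.13 to -0.20). In control 1 nucleus of cluster 13 with 51329 UMIs held 34 of the 73 Fst UMIs and 57 of the 218 Bmp4 UMIs. With the nucleus richest in Fst left out of each library the log2 ratio was -0.13 (-0.71 to 0.47). Outside cluster 13 Fst was higher in cOE, at 13.98 CPM against 6.01 CPM in control (48 and 10 UMIs, 1.22, 0.22 to 2.37). The direction of the medial gate did not hold for the medial nuclei outside that cluster.

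The same deep nucleus was among the medial nuclei with both Otoa and Rspo2, interdental markers (140 in cOE, 38 in control). Bmp4 stood there at 66.2 CPM in cOE nuclei and 267 CPM in control nuclei (-2.01, -2.59 to -1.44) and Fst at 28.2 and 144 CPM (-2.35, -3.23 to -1.52), where 31.3% of genes were past 1.5-fold. With the richest nucleus left out of each library 35 and 6 Bmp4 UMIs were left, with a log2 ratio of 0.63 (-0.64 to 2.17), and 6 and 0 Fst UMIs. In the mesenchymal subset with at least 2 of Runx2, Dio2 and Coch, Bmp4 was at 30.5 CPM in cOE nuclei and 62.9 CPM in control nuclei (-1.05, -1.65 to -0.47, with 20.2% of genes past 1.5-fold). That subset held 25 cOE and 37 control nuclei of at least 10000 UMIs, and without them the ratio was -0.21 (-1.29 to 0.87).

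In the Hmga2 gate 0 of 6 measured genes were past 1.5-fold, where 21.2% of all 9714 genes were. Bmp4 was at -0.32 (-0.52 to -0.12) and Fst at 0.51 (-0.02 to 1.07), with 112 CPM in cOE nuclei and 78.9 CPM in control nuclei. In the mesenchyme gate 0 of 8 were past 1.5-fold, where 11.7% of 17492 genes were. Fst was at 0.55 (0.11 to 1.00, 9.71 CPM in cOE nuclei and 6.62 CPM in control nuclei), which became 1.03 with doublets kept. Id4 was at 0.40 (0.17 to 0.63) and Bmp4 at -0.12 (-0.29 to 0.05). Smad3 and Bmpr2, the most deeply counted there, differed by -0.06 (-0.18 to 0.06) and 0.10 (0.02 to 0.19).

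In the pillar and Deiters gate 2 of 5 measured genes, Gdf6 and Strap, were past 1.5-fold higher in cOE, where 16.0% of 4772 genes were (29.4% in either direction, 13.3% lower). Gdf6 stood at 68.4 CPM in cOE nuclei and 6.09 CPM in control nuclei from 19 and 1 UMIs (3.49, 0.84 to 8.87), and Strap at 57.6 and 24.4 CPM from 16 and 4 UMIs (1.24, -0.39 to 3.28). The composition of the gate differed too: cluster 21 made up 18.75% of its cOE and 5.88% of its control nuclei (12 and 2 nuclei). Cluster 23 made up 17.2% and 14.7%, and 12 of the 19 cOE Gdf6 UMIs and the 1 control UMI lay there. Lgr5, a marker of a part of these cells, stood at 364 CPM in cOE nuclei and 97.5 CPM in control nuclei. Lgr5 is also the gene of the driver allele that only cOE mice carry, so its level cannot be read as composition alone. The part of the cluster mix in the Gdf6 difference was not tested. In all 3 pillar-Deiters-like clusters Strap had a higher level in cOE, but only cluster 21 had at least 20 UMIs of it. The log2 ratio there was 0.93 (-0.59 to 2.73, 16 and 5 UMIs), where 13.2% of genes were past 1.5-fold higher. Cluster 23 was at 1.52 (-0.75 to 4.77, 9 and 2 UMIs) and cluster 25 at 2.42 (0.35 to 5.58, 17 and 2 UMIs). Strap was also higher in cluster 14, at 48.0 CPM against 14.7 CPM (40 and 6 UMIs, 1.71, 0.46 to 3.24), where 13.8% of genes were past 1.5-fold higher. In cluster 13, in contrast, its ratio was 0.00 (-0.75 to 0.77).

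**Figure D3:**
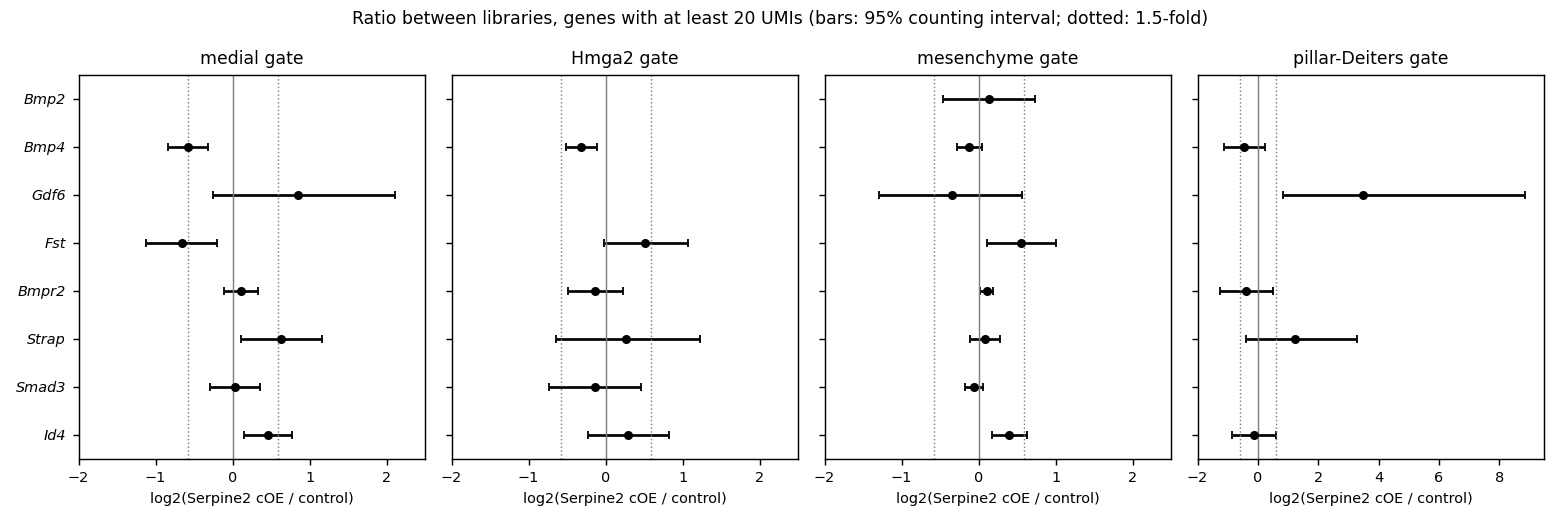
Log2 ratio of Serpine2 cOE over control (horizontal axis) for each gene with at least 20 UMIs (rows) in the medial, Hmga2, mesenchyme and pillar-Deiters gates, with 95% counting intervals and dotted lines at 1.5-fold. Gdf6 and Strap lie past the line in the medial and pillar-Deiters gates, and no gene does in the Hmga2 and mesenchyme gates.

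In the hair cell gate 1 of 7 measured genes, Fst, was past 1.5-fold higher in cOE, where 6.69% of 14737 genes were (13.2% in either direction). It stood at 16.8 CPM in cOE nuclei and 5.31 CPM in control nuclei (1.66, 0.83 to 2.58), and 31 of its 63 cOE UMIs lay in 1 nucleus of 70416 UMIs. Without nuclei of at least 10000 UMIs, 80 in each library, Fst stood at 6.68 and 6.44 CPM (0.05, -1.36 to 1.55).

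Across the 25 clusters 20.8% of all comparisons of a gene with at least 20 UMIs were past 1.5-fold, 10.8% higher and 9.9% lower in cOE. Id4 was past 1.5-fold higher in 12 of its 24 measured clusters and lower in 0, with a median of 0.58. Fst was higher in 6 of 10 and lower in 0, Strap higher in 6 of 20 and lower in 1, and Gdf6 higher in 3 of 4. The counting interval lay wholly above 0 in 8 measured clusters for Id4, 4 for Fst, 1 for Strap and 1 for Gdf6. Without the richest nucleus of each library, Fst fell inside 1.5-fold in clusters 10 (0.41) and 12 (0.53), but not in clusters 1, 11, 15 and 16. Smad3 was higher in 0 of 22 and lower in 4, a share past 1.5-fold below the 20.8% of all comparisons. Its interval lay wholly below 0 in 5 measured clusters. Bmp4 was higher in 1 and lower in 4 of 17, Bmpr2 higher in 0 and lower in 2 of 25, and Bmp2 higher in 1 and lower in 1 of 4.

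The Id4 differences were not even over the clusters. Cluster 3 (led by 8030451A03Rik and Tnc) stood at 35.4 CPM in cOE nuclei and 13.8 CPM in control nuclei (1.36, 0.76 to 1.997), cluster 1 (led by Col6a6) at 29.6 and 15.6 CPM (0.92, 0.44 to 1.42), and the medial-like cluster 14 at 157 and 78.3 CPM (1.01, 0.44 to 1.61). Where Id4 was high, cluster 7 (roof-like) was at 185 and 176 CPM (0.08, -0.15 to 0.31), cluster 18 at 0.01, cluster 23 at -0.01 and cluster 24 at -0.10. Cluster 25, the highest for Id4 in cOE, was past 1.5-fold higher, at 267 and 172 CPM from 81 and 33 UMIs (0.63, 0.03 to 1.26). The control level also divides the ratio, so higher ratios in clusters with little control Id4 are partly built in. Epcam, an epithelial adhesion gene looked at after these values had been seen, was also higher in cOE in mesenchymal nuclei: 214 CPM in cOE against 103 CPM in control in the mesenchyme gate (1.05, 0.95 to 1.15), 1.20 in cluster 1 and 0.94 in cluster 3. It was also higher in the macrophage-like cluster 17 (0.97, 0.37 to 1.60) and in hair cell-like cluster 10 (0.80, 0.62 to 0.98), and close to even in the medial-like cluster 4 (0.01, -0.12 to 0.14). Id4 in cluster 17 had only 4 UMIs in cOE and 11 in control. Clusters 7 (0.91, 0.68 to 1.14), 18 (0.50, 0.10 to 0.92) and 23 (0.73, 0.05 to 1.46) had more Epcam in cOE too, while Id4 was near even there. In the medial-like cluster 14 Epcam was at 0.73 (0.36 to 1.12). Cdh1, also an epithelial adhesion gene, stood in the mesenchyme gate at 49.1 and 35.0 CPM (0.49, 0.30 to 0.68), where Id4 was at 0.40. Whole epithelial marker lists differed less than Epcam in that gate. The 11 medial markers, all detected, summed to 429 and 438 CPM, the 6 roof markers to 291 and 263 CPM, and the 10 pillar and Deiters markers to 277 and 205 CPM. The osteoblast and chondrocyte list stood further apart, at 170 and 63.7 CPM. The part of RNA from these cell types in the mesenchymal Id4 difference was not tested.

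**Figure D4:**
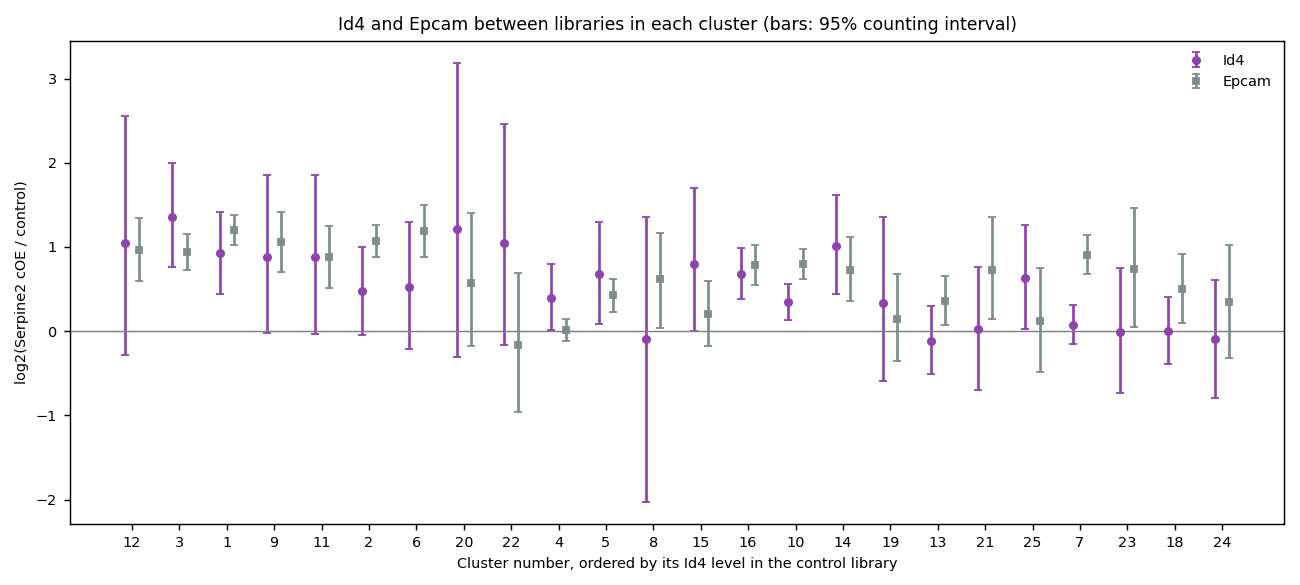
Log2 ratio of Serpine2 cOE over control (vertical axis) for Id4 (purple circles) and Epcam (grey squares) in the 24 clusters with at least 20 Id4 UMIs (horizontal axis, ordered by control Id4 level), bars 95% counting intervals. Id4 ratios reach 1.36 among clusters with little Id4 on the left and, on the right, lie near 0 in clusters 7, 18, 23 and 24 and at 0.63 in cluster 25. The control level that orders the clusters also divides the Id4 ratio, so a fall from left to right is partly built in.

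Another 71 genes of the pathway were counted by role, and all were in the gene list. In the medial gate 49 had at least 20 UMIs, 2 of them past 1.5-fold higher in cOE and 3 lower, a share below the 14.8% of all genes, so the values that follow are a description. Smad9, a BMP-regulated Smad, stood at 13.5 CPM in cOE nuclei and 8.16 CPM in control nuclei (0.72, -0.13 to 1.67), and Skil, a repressor of Smad complexes, at 49.3 and 32.6 CPM (0.59, 0.16 to 1.04). The BMP antagonist Chrd was at 3.30 and 5.44 CPM (-0.72, -2.06 to 0.65). Ltbp3 and Ltbp4, which hold latent TGF-beta in the matrix, were at 55.1 and 83.2 CPM (-0.60, -0.91 to -0.28) and at 36.9 and 56.0 CPM (-0.60, -0.98 to -0.22). The median of the 49 genes was -0.00 and that of all genes 0.02.

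In the Hmga2 gate 42 were measured, 3 past 1.5-fold higher and 4 lower, a share below the 21.2% of all genes. Skil was higher again, at 32.6 CPM in cOE nuclei and 18.8 CPM in control nuclei (0.80, -0.28 to 1.999), with Bmp8b, a BMP ligand (0.85), and Tgif1, a repressor of Smad2 and Smad3 transcription (0.89). Smad7, an inhibitory Smad, was lower, at 291.5 and 458.3 CPM from 259 and 244 UMIs (-0.65, -0.91 to -0.40). Inhba, an activin subunit gene, was at 31.5 and 62.0 CPM (-0.98, -1.76 to -0.21), the activin receptor gene Acvr1b at 14.6 and 30.1 CPM (-1.04, -2.21 to 0.11) and Ltbp1 at 85.5 and 135 CPM (-0.66, -1.15 to -0.18). In the same nuclei the 6 roof markers, all detected, summed to 952 CPM in cOE nuclei and 565 CPM in control nuclei, and the 8 marginal cell markers (5 and 6 detected) to 325 and 195 CPM. Lgr5 stood there at 58.5 and 150 CPM, and 9 cOE and 0 control nuclei lay in cluster 25. The part of these in the differences was not tested. In the mesenchyme gate 0 of 55 were past 1.5-fold, where 11.7% of all genes were, with a median of -0.01, and the 55 included all 10 receptors. In the pillar and Deiters gate 1 of 26 was higher, Bmp7, a BMP ligand (1.24, -0.39 to 3.28), and 4 were lower, a share below the 29.4% of all genes. The coreceptor Tgfbr3 stood at 25.2 CPM in cOE nuclei and 97.5 CPM in control nuclei (-1.95, -3.48 to -0.59), the secreted proteins Fstl1 and Bmper were at -0.97 (-1.81 to -0.15) and -0.96 (-1.90 to -0.03), and the target Id3 was at -0.67 (-1.26 to -0.09).

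**Figure D5:**
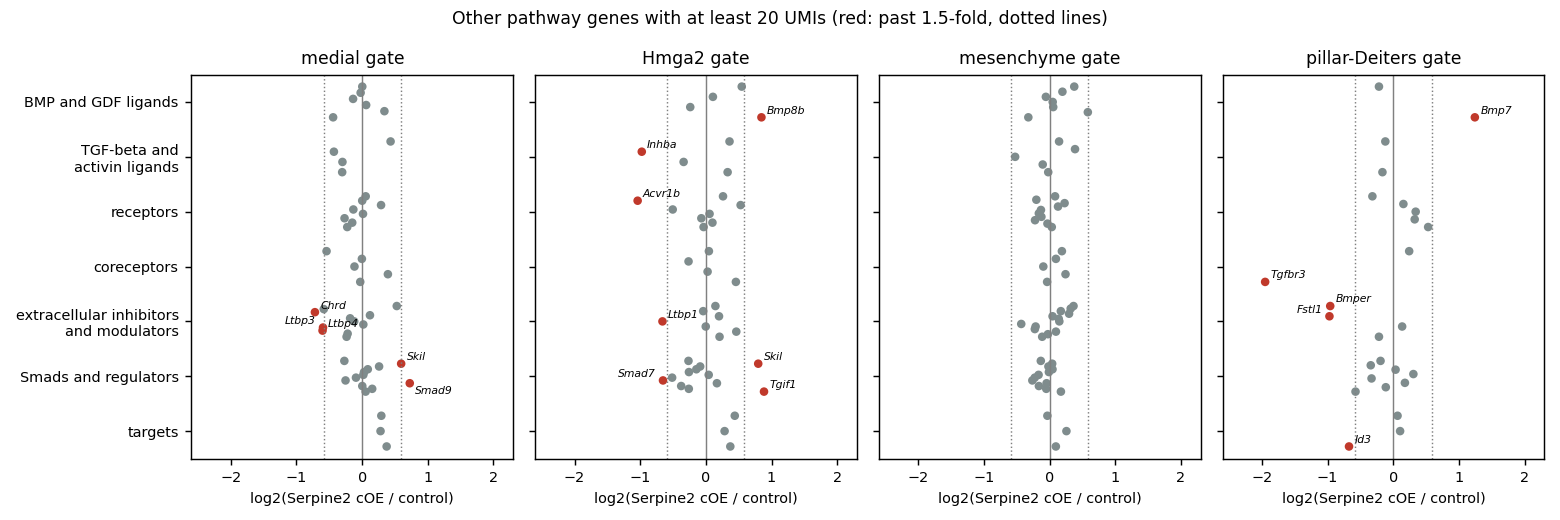
Log2 ratio of Serpine2 cOE over control (horizontal axis) of other pathway genes with at least 20 UMIs, by role (rows), in 4 gates; each point is 1 gene, red and named when past 1.5-fold (dotted lines). No gene is past the line in the mesenchyme gate, while 5 are in the medial gate, 7 in the Hmga2 gate and 5 in the pillar-Deiters gate.

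Genes with a pattern over cell types most like each of the 8 were ranked by the lower Pearson r of both libraries on the log2(CPM + 10) scale. Over the 5 fixed gates large enough, between 5 and 528 genes reached 0.9, so that list singled out little. Over the 25 clusters, added afterwards, Bmp4 was closest to Flt1, a VEGF receptor gene (0.87 in cOE and 0.78 in control), followed by Ndst3, a heparan sulfate sulfotransferase gene, and Pdgfb, a growth factor gene. Gdf6 was closest to Gm48715, Mansc4 and Stx6 (0.73, 0.81 and 0.69 in cOE, and 0.67, 0.67 and 0.65 in control). Fst was closest to Tpbg, Polk and Npnt. Id4 was closest to BC006965 (0.90 and 0.87), to Grhl2, an epithelial transcription factor gene (0.87 and 0.86), and to Esrp1, an epithelial splicing factor gene (0.91 and 0.86). These are descriptions over clusters that share libraries and depth.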

How the data were processed

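Per the file headers, the authors wrote whole-number UMI counts per gene and barcode with Cell Ranger 8.0.1. STAR is named without a version in the submitters' processing notes, which give mm10, while the design text gives GRCm39. No count depended on coordinates. Gene positions came from GENCODE M39 (GRCm39), which held 33185 of the 33696 identifiers, and upstream windows from RefSeq (GRCm38.p6), found for 5 of the 8 genes. Whether reads were counted by strand was not given in the sources used here, and annotated antisense genes overlap Bmp4 (Gm15217, Gm15222), Fst (Gm47040), Bmpr2 (B430105G09Rik) and Id4 (Gm49291).

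The libraries held 40429121 UMIs in cOE and 31158971 in control. Barcodes with at least 500 genes and at most 5% mitochondrial UMIs were kept. The automatic Scrublet threshold (scanpy 1.11.5) marked 0% in both libraries, so the top 0.8% of scores per 1000 barcodes were removed, 1040 and 703. UMIs were summed per gate and scaled to the gate total as CPM, with exact Poisson, conditional binomial (ratios) and Clopper-Pearson (shares) 95% intervals. A count of 0 was given the limit of 3 counts. Leiden clustering used 3000 variable genes, 50 components, 15 neighbours and resolution 1. A cluster was named from at least 3 markers present in 10% of its nuclei and 2-fold higher than elsewhere, more than of any other list, also among its 10 leading genes. The 8 genes, the other pathway genes, Serpine2 and Lgr5 were left out of clustering. With 1 library a group the size rule was 1.5-fold with at least 20 UMIs. Named pathway genes were those past it in 4 gates, and the 3 genes most like each in pattern were ranked. Other filters, gates, scalings and thinning were tried as alternatives. The ratio step was run on simulated data, where 96.2% of 13683 intervals of the medial gate covered the true ratio. The simulated counts followed the Poisson model that the intervals assume, which fixes coverage near 95% in advance. Clumping of UMIs in single nuclei was not simulated, so the run does not check the intervals for it. TMM factors came from edgeR 4.0.16. The 8 genes and the lists were chosen with earlier results of these data known.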

Additional observations from a re-analysis of the deposited data

Results flagged for a closer look

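Fst was past 1.5-fold in opposite directions in 2 gates. Its log2 ratio of Serpine2 cOE over control was -0.66 (-1.13 to -0.20) in the medial gate and 1.66 (0.83 to 2.58) in the hair cell gate, where it stood at 16.8 CPM in cOE nuclei and 5.31 CPM in control nuclei, and 13.2% of genes were past 1.5-fold. The difference between the gates was not tested, since each group was 1 library. In the hair cell gate 31 of the 63 cOE UMIs lay in 1 nucleus of 70416 UMIs, against at most 2 of 15 in any control nucleus. With the nucleus richest in Fst left out of each library the hair cell ratio was 0.91 (-0.06 to 1.97), and without nuclei of at least 10000 UMIs it was 0.05 (-1.36 to 1.55), from 12 and 8 UMIs. In the medial gate, 34 of the 73 control UMIs lay in 1 nucleus.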

How the results depend on the processing

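No paired analysis was possible because each group was 1 library, and for the same reason no library could be left out. Of 341 values of the 8 genes between libraries under other settings, 319 stayed within the counting interval of the reported value, 17 moved outside it and 5 turned a value past 1.5-fold to the other sign. Of 114 values between gates, 93 stayed within it, 21 moved and 0 changed sign. With clusters in place of gates, medial Gdf6 was -0.27 and medial Fst 0.75, and the clusters gave 0.053 for Bmp4 in place of the Hmga2 gate and 0.83 for Id4 in mesenchyme. Medial Fst was 0.01 (0.007) with a lead of 1 marker, -0.13 without the richest nucleus and 1.30 without nuclei with a Hmga2 UMI. Bmp4 was 0.044 when the Hmga2 gate took 1 UMI. Strap in the pillar and Deiters gate was -0.98 after thinning, from 1 UMI in each library. Gdf6 there gave no value without the richest nucleus, since control had 0 UMIs left. The causes were not tested. Genes past 1.5-fold, 2032 in the medial gate, numbered 9021 from 1 UMI and 987 from 50 UMIs. In the Hmga2 gate 2059 became 9871 and 776, and 628 after thinning. In mesenchyme 2038 became 7947 and 1131. In the pillar and Deiters gate 1402 became 9874 and 395, and 306 after thinning. The floor on UMIs sets how many genes are counted. The alternatives on Hmga2, on deep nuclei and on the cluster led by Actb and Kdelr2 were chosen after seeing the data.

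The limits are 1 library per group, pools of animals, and counting intervals that leave out variation between animals. The pillar and Deiters gate held 64 cOE and 34 control nuclei, and a count of 0 UMIs in it allows levels up to 10.8 CPM (cOE) and 18.3 CPM (control).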
